A study of Mus musculus with 22 samples.

Results

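The 10 genes described here, Psmc3ip, Coasy, Naglu, Atp6v0a1, Plekhh3, Cntnap1, Ezh1, Rdm1, Meox1 and Gfap, lie on mouse chromosome 11 around the gene that was targeted, Mlx. They are 10 of the 17931 gene symbols in a table of RNA read counts. They were chosen by position, within about 2 Mb of Mlx, and some of them were also selected on the size of their measured difference between knockout (KO) and wild-type (WT) testes, with no threshold stated for that size. Their values in that contrast are therefore given as a description, without a test. Among the 10, the smallest of the 4 large log2 fold changes belonged to Plekhh3, at 2.67, and the largest among the other genes of the 2 Mb window belonged to Ifi35, at 1.30.

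RNA was taken from whole testes of 6 males aged 7 months, in 3 littermate pairs of 1 WT and 1 KO animal, and sequenced as 1 library per animal. The WT males were breeders of known fertility and carried no targeted allele. The KO males carried the constitutive Mlx knockout in all tissues, a deletion of exons 3 to 6, which encode the part of the protein needed for dimerization and DNA binding. The allele was made in 129S4 AK7 embryonic stem cells with a construct that held an FRT-flanked neomycin selection cassette. For the total knockout, chimeras were bred to Meox2-Cre mice. For the conditional allele, they were bred to FlpO females described as 129S4 co-isogenic, which removed the cassette. The Cre or FlpO allele was later crossed out. Whether the cassette remained in the total knockout is not given in the sources used here. The strain background of the 6 males sequenced is not given in the sources used here. Unless the line was kept co-isogenic, littermates of different Mlx genotype can also differ in the stretch of chromosome 11 inherited with the targeted allele. Effects of the loss of MLX, of the altered locus and of any such linked sequence cannot be told apart for genes this near.

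MLX is a basic helix-loop-helix leucine zipper protein that binds DNA as a dimer with partners such as MondoA, ChREBP, MNT and MXD proteins. These dimers recognise E-boxes, of which CACGTG is the best known form, and regulate genes of glucose, lipid and energy metabolism. The genes around Mlx have no shared task, and range from meiotic recombination and lysosomal breakdown to chromatin silencing, axonal junctions and the cytoskeleton of glial cells. The testis is a mixture of germ cells at successive stages with Sertoli, Leydig, myoid, endothelial and immune cells. In RNA from the whole organ, a smaller number of cells of a type and less RNA per cell cannot be told apart.

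The promoters that RefSeq places before these genes are shown first because MLX acts through E-boxes. RefSeq promoters on build GRCm38.p6 (mm10) matched 6 of the 10 genes, and Mlx itself. Over the 250 bases before the start site that the promoter table gives (the first listed, where it gives more than 1), a search of both strands for CACGTG, which reads the same on either strand, found it in Naglu and in Mlx and in none of Atp6v0a1, Psmc3ip, Plekhh3, Ezh1 and Gfap. Over all RefSeq promoters, 1978 of 32851, or 6.02%, held it in a window of that length. For Mlx and Atp6v0a1 that start site lies inside the RefSeq gene body, which begins at an earlier start. The same holds by a few bases for Naglu and Plekhh3. A match is a description of the letters and not of binding. Shown 5′ to 3′ is the promoter of Naglu (chr11:101069844-101070093, plus strand), the one of the 6 that holds the motif, in capitals. Beside it stand those of Plekhh3 (chr11:101171373-101171622, minus strand) and Gfap (chr11:102897201-102897450, minus strand), which differed most between genotypes among the members with a promoter sequence and have no capitals.
Naglu: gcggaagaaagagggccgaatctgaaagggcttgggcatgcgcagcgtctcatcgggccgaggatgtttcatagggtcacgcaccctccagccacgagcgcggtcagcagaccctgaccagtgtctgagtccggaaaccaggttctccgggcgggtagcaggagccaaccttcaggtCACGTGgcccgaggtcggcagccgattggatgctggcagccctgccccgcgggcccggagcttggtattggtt
Plekhh3: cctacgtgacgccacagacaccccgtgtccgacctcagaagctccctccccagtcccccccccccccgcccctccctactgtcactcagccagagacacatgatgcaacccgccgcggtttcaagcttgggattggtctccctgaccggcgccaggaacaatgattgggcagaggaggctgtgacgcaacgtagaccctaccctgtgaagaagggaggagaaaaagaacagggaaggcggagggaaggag
Gfap: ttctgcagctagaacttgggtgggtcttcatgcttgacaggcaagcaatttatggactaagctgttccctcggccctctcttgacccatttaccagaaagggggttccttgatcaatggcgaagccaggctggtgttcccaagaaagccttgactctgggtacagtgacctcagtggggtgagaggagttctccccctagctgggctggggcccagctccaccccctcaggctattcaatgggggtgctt
The motif starts 40 bases before the start site of Mlx and 73 bases before that of Naglu.

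Mlx lies on chr11:101086707-101092207, and its counts do not check the genotype labels. Counted reads were 128, 96 and 98 in WT1 to WT3 and 94, 109 and 102 in KO1 to KO3, so the groups overlapped. The log2 fold change (KO over WT) was -0.18 (SE 0.14), with a Benjamini-Hochberg adjusted p of 0.326 in edgeR's quasi-likelihood test. Exons 3 to 6 hold 397 of the 1975 exon bases of an 8-exon RefSeq model, or 20.1%, so that most of the counted sequence lies outside the deletion. A further 67 exon bases are shared with Psmc3ip on the opposite strand, and whether counting used strand is not given in the sources used here. Every direction below rests on the labels, KO against WT.

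The 6 libraries held 16674678 to 19742726 counts. Of the 14640 genes that passed the filter on low counts, 6649 passed an adjusted p of 0.05, 3634 of them higher and 3015 lower in KO testes (edgeR's quasi-likelihood test). Scaling by library size alone shifted the median log2 fold change of all genes by 0.14, and then 5343 genes were called higher and 1268 lower. The median log2 fold change over all genes was 0.03, and the median absolute value 0.23. Counts of KO1 stood farthest from those of its group, with a chi-square per degree of freedom of 8.26 against KO2 and 8.25 against KO3, where KO2 and KO3 gave 2.73 against each other. Levels are given as CPM, the count scaled to a common library size. Germ cell transcripts of the labelled tissue were abundant, and the summed level of the protamines and other elongating spermatid markers was 17200 to 18100 CPM in WT and 9820 to 12100 in KO libraries. Marker sums of spermatocytes (924 to 967 CPM in WT, 834 to 849 in KO) and round spermatids (1010 to 1050 and 861 to 903) were also lower in KO libraries. Those of Sertoli cells (1080 to 1130 in WT, 1610 to 1950 in KO), Leydig cells (735 to 756 and 1660 to 2120), macrophages (69.2 to 72.5 and 125 to 132), endothelium (12.7 to 15.8 and 26.1 to 30.9) and spermatogonia (52.3 to 56.1 and 70.4 to 79.7) were higher. Only 2 of 4 endothelial and 1 of 5 spermatogonial markers were called higher. The spermatogonial sum rose mostly through Kit (means of 22.4 CPM in WT and 39.2 in KO). Log2 fold changes were 0.81 for Kit, 0.40 for Zbtb16, 0.27 for Stra8, -0.04 for Gfra1 and -0.08 for Sall4. Peritubular myoid sums overlapped (297 to 353 and 285 to 305), but their markers moved in opposite directions, 2 of 4 called higher and 1 lower. Actg2, with means of 267 CPM in WT and 204 in KO, made up most of the sum (log2 fold change -0.39). The others had 0.56 (Acta2), 0.33 (Myh11) and 0.33 (Cnn1). Epididymal markers, a sign of tissue outside the testis, summed to 4.11 to 5.02 CPM in WT and 2.60 to 3.28 in KO libraries. Nearly all of this was Rnase10 (75, 78 and 75 counts in WT, 50, 43 and 61 in KO). Lcn5 had 0 to 1 and Crisp1 1 to 4 counts per library. The part of these shifts in the differences below was not tested.

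All 10 genes passed the filter, and they fell into 3 sorts. Plekhh3, Rdm1 and Gfap were several-fold higher in KO testes, Meox1 was several-fold lower, and Atp6v0a1 was moderately higher. Of the other 5, Coasy, Cntnap1 and Ezh1 lay towards higher and Psmc3ip and Naglu towards lower values in KO testes. Cntnap1 (log2 fold change 0.67) was near Atp6v0a1 (0.71) in size, but it had few counts and its groups overlapped. By the threshold used for all genes, 4 of the 10 were called higher, against 24.8% of all genes tested, and 2 lower, against 20.6%, or 45.4% in both directions together. An absolute log2 fold change over 1 was reached by 4 of the 10, where 6.03% of all genes tested were called at that size. All KO libraries lay above all WT libraries for 5 of the 10 (30.3% of all genes tested) and below them for 3 (25.9%). Because the genes were partly selected on this contrast, nothing is read from these shares.

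**Figure D1:**
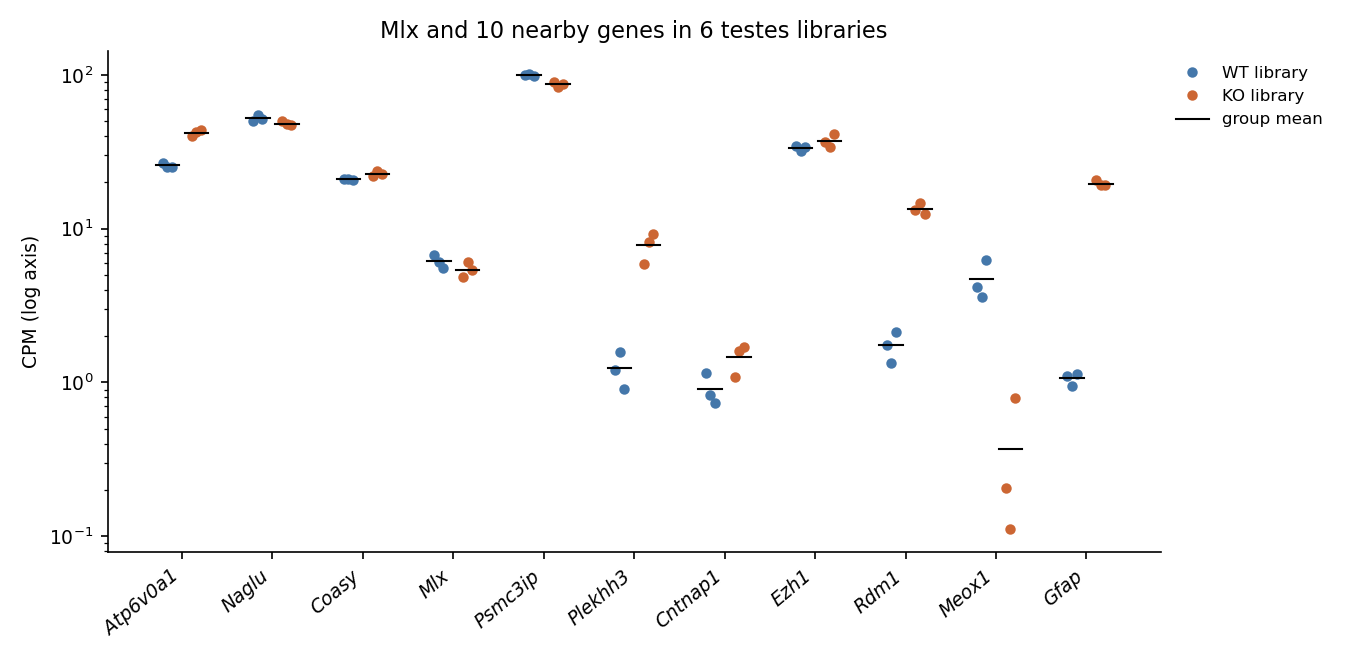
CPM on a log axis for Mlx and the 10 genes, ordered by position on chromosome 11, with 1 point per library (3 WT, 3 KO) and a line at each group mean. The KO points of Plekhh3, Rdm1 and Gfap lie above and those of Meox1 below all WT points, while those of Cntnap1, Ezh1 and Mlx overlap with WT.

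Gfap (chr11:102887336-102897200, minus strand, 1795 kb from Mlx) encodes glial fibrillary acidic protein, the intermediate filament of astrocytes and of some other glia. Reads counted were 21, 15 and 20 in WT1 to WT3 and 401, 346 and 360 in KO1 to KO3. The KO libraries lay far above the WT libraries with no overlap, and within each genotype the values were close. Mean levels were 1.06 CPM ± 0.0950 (SD, n = 3) in WT testes and 19.6 CPM ± 0.916 (SD, n = 3) in KO, a ratio of 18.5. The fitted log2 fold change was 4.19 (SE 0.13), with 4.09, 4.18 and 3.95 in littermate pairs 1 to 3. Among all genes tested it ranked 9th by absolute log2 fold change, and 2nd of the 1200 tested on chromosome 11.

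Markers of glia and nerve did not separate the genotypes as Gfap did. S100b, Mbp and Sox10 summed to 6.17 to 7.39 CPM in WT and 6.67 to 10.4 CPM in KO libraries, so the groups overlapped, and 0 of 3 passed the threshold. Of other intermediate filament genes, 3 were listed as partners, and all 3 passed it. Vim (vimentin, of mesenchymal and Sertoli cells) rose by a log2 fold change of 1.05 (SE 0.06, adjusted p = 1.2e-06, edgeR), higher in 3 of 3 pairs. Nes (nestin, of progenitor cells) rose by 0.99 (SE 0.20, adjusted p = 0.00224, edgeR), and Des (desmin, of muscle) by 0.62 (SE 0.12, adjusted p = 0.00193, edgeR), each in 3 of 3 pairs. None of the 3 was close to Gfap in size. The genes that border Gfap were lower in KO testes or differed little. Fam187a, 0.605 kb away, had a log2 fold change of -0.56 (adjusted p = 0.00484, edgeR) and Kif18b, a kinesin gene 8.32 kb away, -0.11 (adjusted p = 0.156, edgeR).

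Rdm1 (chr11:101627242-101636089, plus strand, 535 kb from Mlx) encodes a protein with a RAD52 motif that takes part in the response to DNA damage. Its counts were 33, 21 and 38 in the WT libraries and 255, 264 and 234 in the KO libraries. The lowest KO library lay well above the highest WT library. In RefSeq, Rdm1 shares 191 exon bases with LOC115487916 on the same strand, which has no row among the counts analysed. In CPM the means were 1.74 ± 0.404 (SD, n = 3) in WT testes and 13.4 ± 1.13 (SD, n = 3) in KO, a ratio of 7.69. The log2 fold change was 2.93 (SE 0.16), and 2.84, 3.35 and 2.47 by pair, which placed it 28th of all genes tested and 6th on chromosome 11. Rad52, the recombination gene whose motif gave Rdm1 its name, fell by 0.47 on the log2 scale (SE 0.15, adjusted p = 0.0275, edgeR), lower in 3 of 3 pairs, a call that held in 7 of 13 alternative analyses. Of the tested genes on either side of Rdm1, Tmem106a, 35.5 kb away, rose by 0.37 (adjusted p = 0.0171, edgeR, held in 10 of 13 alternatives) and Arl4d, a small GTPase gene 29.5 kb away, by 0.70 (adjusted p = 0.000907, edgeR). Both lay in the direction of Rdm1 and were several times smaller on the log2 scale.

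Plekhh3 (chr11:101162679-101171378, minus strand, 70.5 kb from Mlx) belongs to a family of proteins with pleckstrin homology, MyTH4 and FERM domains. The counts were 23, 25 and 16 in WT and 115, 149 and 175 in KO libraries. KO1 was the lowest of the KO libraries and still several times the highest WT library. Means were 1.23 CPM ± 0.344 (SD, n = 3) in WT testes and 7.81 CPM ± 1.71 (SD, n = 3) in KO, a ratio of 6.33. The log2 fold change was 2.67 (SE 0.24), with pair values of 2.19, 2.30 and 3.21. It ranked 37th of all genes tested and 7th on chromosome 11. Its paralogs on other chromosomes moved in opposite directions: Plekhh1 rose by 0.44 (SE 0.10, adjusted p = 0.00558, edgeR, held in 12 of 13 alternatives), and Plekhh2 fell by 0.33 on the log2 scale (SE 0.05, adjusted p = 0.000245, edgeR).

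The genes that border Plekhh3 had no difference of that size. Tubg2, a gamma-tubulin gene 0.892 kb away, had a log2 fold change of -0.70 (SE 0.31, adjusted p = 0.0854, edgeR). On the other side, 3.24 kb away, lies Cntnap1 (chr11:101174617-101190724, plus strand, 82.4 kb from Mlx), which encodes contactin-associated protein, or Caspr, of the junctions beside the nodes of myelinated axons. Cntnap1 was barely expressed, with 22, 13 and 13 counts in WT and 21, 29 and 32 in KO libraries. KO1 fell within the WT range and the groups overlapped. Means were 0.907 CPM ± 0.224 (SD, n = 3) and 1.46 CPM ± 0.330 (SD, n = 3), and the log2 fold change was 0.67 (SE 0.29), with -0.09 in pair 1, 0.87 in pair 2 and 1.10 in pair 3. It shares 106 exon bases with Ccr10 on the opposite strand, and Ccr10 had 0 to 3 counts per library. The axonal partners of Cntnap1 did not pass the threshold, with log2 fold changes of -0.27 for the contactin gene Cntn1 (adjusted p = 0.148, edgeR) and -0.76 for the neurofascin gene Nfasc (adjusted p = 0.0779, edgeR; 0.0471 with the littermate pair as a block).

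Meox1 (chr11:101877510-101894354, minus strand, 785 kb from Mlx) encodes a homeobox transcription factor of somites and their derivatives. WT libraries had 79, 57 and 111 counts and KO libraries 4, 2 and 15. No KO library approached the WT range, and KO3 was the highest of the KO libraries as WT3 was of the WT libraries. The means were 4.68 CPM ± 1.39 (SD, n = 3) in WT testes and 0.370 CPM ± 0.370 (SD, n = 3) in KO, so the KO mean was 0.0791 times the WT mean. The log2 fold change was -3.63 (SE 0.44), with -3.76, -4.08 and -2.82 by pair, 14th by absolute value among all genes tested and 3rd on chromosome 11. Without KO3 it was -4.81. Meox1 reached the filter in 3 WT libraries and 1 KO library and so entered the fit through WT. At its KO level in both genotypes it would not have been tested, so its difference is given only as a description. Its paralog Meox2 had 0 to 4 counts per library and was not tested.

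The genes that border Meox1 had no difference of that size. Etv4, an ETS factor gene 92.2 kb away, had a log2 fold change of 0.95 (SE 0.34, adjusted p = 0.0406, edgeR; 0.0518 with the littermate pair as a block), and its call held in 3 of 12 alternatives. Sost, the sclerostin gene 68.1 kb away on the other side, had -0.23 (SE 0.26, adjusted p = 0.503, edgeR).

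**Figure D2:**
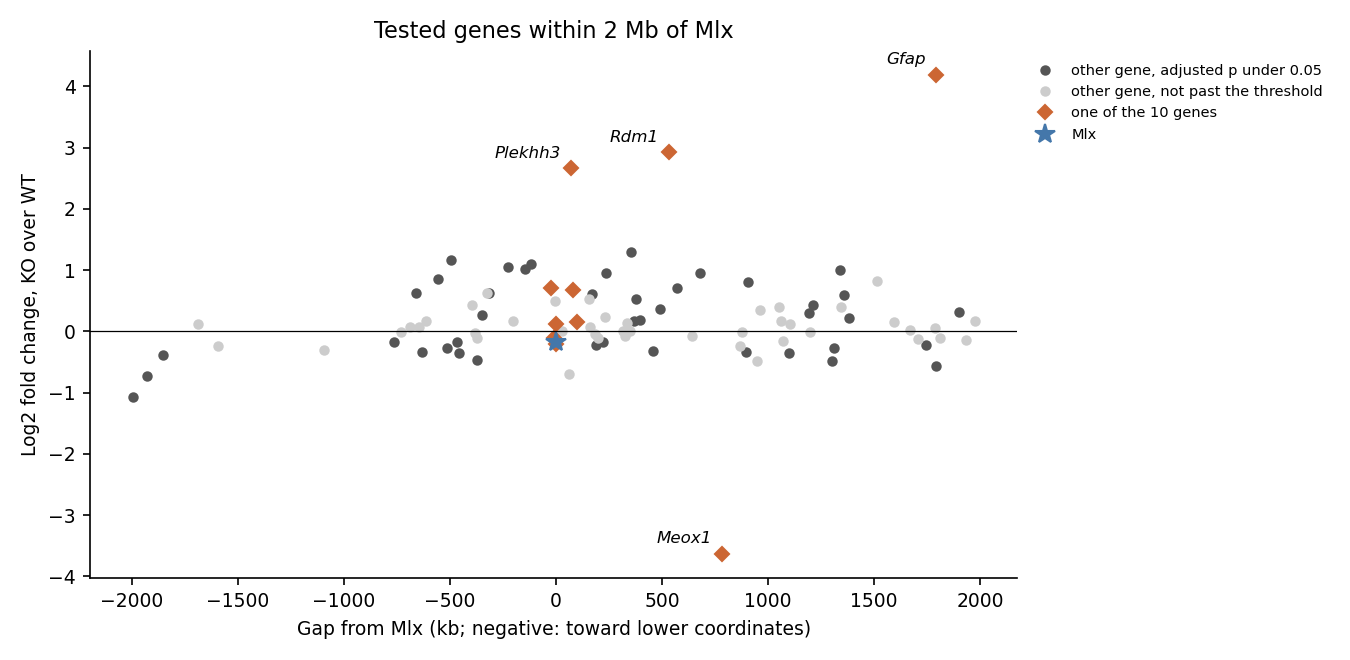
Log2 fold change of KO over WT against the gap from Mlx in kb, 1 point per tested gene within 2 Mb, with the 10 genes as diamonds and Mlx as a star. Gfap (4.19), Rdm1 (2.93), Plekhh3 (2.67) and Meox1 (-3.63) stand apart from the other genes, which lie between -1.07 and 1.30.

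Atp6v0a1 (chr11:101009422-101063719, plus strand, 23.0 kb from Mlx) encodes a membrane subunit of the V-ATPase, the proton pump that acidifies lysosomes, synaptic vesicles and other compartments. Its 510, 394 and 448 counts in WT compare with 778, 767 and 830 in KO libraries, with a clear gap between the groups. Mean CPM was 25.7 ± 1.00 (SD, n = 3) in WT testes and 42.2 ± 1.92 (SD, n = 3) in KO, a ratio of 1.64. The log2 fold change was 0.71 (SE 0.07), and 0.58, 0.76 and 0.80 by pair. Of 5 other subunit genes of the membrane sector, 2 rose and 3 did not pass the threshold. Tcirg1, which encodes the a3 form of the same subunit, had 0.76 (SE 0.19, adjusted p = 0.00778, edgeR), and Atp6v0d1 had 0.24 (SE 0.06, adjusted p = 0.00928, edgeR, held in 11 of 13 alternatives). The a2 and a4 forms had log2 fold changes of -0.02 (Atp6v0a2, adjusted p = 0.837, edgeR) and -0.34 (Atp6v0a4, adjusted p = 0.456, edgeR), and the proteolipid gene Atp6v0c had -0.22 (adjusted p = 0.288, edgeR). On the side of Atp6v0a1 away from Mlx, the nearest tested gene was Ptrf, a caveolar coat gene 38.8 kb away, which rose by 1.10 (SE 0.10, adjusted p = 2.09e-05, edgeR).

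Naglu (chr11:101070090-101077672, plus strand, 9.04 kb from Mlx) lies 6.37 kb beyond Atp6v0a1 and encodes the lysosomal enzyme that removes N-acetylglucosamine from heparan sulfate. The WT libraries held 953, 860 and 922 counts and the KO libraries 969, 861 and 892. Raw counts were nearly equal, and after scaling the KO libraries lay just below the WT libraries. The means were 52.3 CPM ± 2.24 (SD, n = 3) and 48.3 CPM ± 1.49 (SD, n = 3), and the log2 fold change was -0.11 (SE 0.06), with -0.01, -0.20 and -0.14 by pair. Scaled by library size alone it was 0.02, so its direction depended on the scaling. Of 4 other genes of heparan sulfate breakdown, 2 rose and 0 fell. These were Hgsnat (1.03, SE 0.11, adjusted p = 3.57e-05, edgeR) and Ids (0.83, SE 0.12, adjusted p = 0.000284, edgeR). Sgsh (0.16, adjusted p = 0.245, edgeR) and Idua (0.34, adjusted p = 0.241, edgeR) did not pass the threshold. Naglu is also the only one of the 6 genes with a promoter sequence that holds the CACGTG motif shown above.

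Coasy (chr11:101082565-101086619, plus strand) ends 0.088 kb before Mlx and encodes coenzyme A synthase, which carries out the last steps of coenzyme A synthesis. Counts were 400, 332 and 368 in WT and 427, 427 and 429 in KO libraries. The KO libraries lay above the WT libraries by a narrow margin. Means were 21.0 CPM ± 0.202 (SD, n = 3) and 22.8 CPM ± 0.801 (SD, n = 3), a log2 fold change of 0.12 (SE 0.07), with 0.06, 0.16 and 0.13 by pair. Of the 5 genes for earlier steps of the pathway, 4 rose and Pank2 (-0.04, adjusted p = 0.508, edgeR) did not pass the threshold. Among the pantothenate kinases, which set the rate of the pathway, Pank1 rose by 1.06 (SE 0.10, adjusted p = 2.08e-05, edgeR) and Pank3 by 0.56 (SE 0.08, adjusted p = 0.000331, edgeR). The calls of the middle enzymes, Ppcdc (0.38, adjusted p = 0.0196, edgeR) and Ppcs (0.35, adjusted p = 0.0478, edgeR; 0.0526 with the littermate pair as a block), held in 8 and in 3 of 13 alternatives. Between Coasy and Naglu lies Hsd17b1, an estradiol-forming enzyme gene, with a log2 fold change of 0.49 (SE 0.45, adjusted p = 0.397, edgeR).

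Psmc3ip (chr11:101092141-101095435, minus strand) overlaps the end of Mlx and encodes HOP2, which with MND1 promotes strand exchange by the recombinase DMC1 in meiosis. It was the most abundant of the 10 genes, with 1880, 1604 and 1738 counts in WT and 1734, 1511 and 1646 in KO libraries. After scaling, each KO library lay below each WT library. Means were 99.7 CPM ± 2.06 (SD, n = 3) in WT testes and 86.7 CPM ± 2.95 (SD, n = 3) in KO, a log2 fold change of -0.20 (SE 0.05), and -0.15, -0.29 and -0.17 by pair. Scaled by library size alone it was -0.06. Its meiotic partner Dmc1 fell by 0.28 on the log2 scale (SE 0.08, adjusted p = 0.0154, edgeR), in 3 of 3 pairs, a call that held in 8 of 13 alternatives. Mnd1 (0.18, adjusted p = 0.56, edgeR) did not pass the threshold. Of the 5 spermatocyte markers, with Dmc1 among them, 4 passed the threshold as lower in KO testes, and their part in the value of Psmc3ip was not tested. On the far side of Psmc3ip, 0.887 kb away, Fam134c had a log2 fold change of 0.12 (adjusted p = 0.119, edgeR).

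Ezh1 (chr11:101191115-101226463, minus strand, 98.9 kb from Mlx) encodes a methyltransferase of Polycomb repressive complex 2, which places the silencing mark on lysine 27 of histone H3. The counts were 657, 505 and 606 in WT and 711, 611 and 781 in KO libraries. Scaled values of the groups overlapped, with KO3 the highest of all 6 libraries. Means were 33.6 CPM ± 1.34 (SD, n = 3) and 37.3 CPM ± 3.81 (SD, n = 3), and the log2 fold change was 0.15 (SE 0.08), with 0.08, 0.07 and 0.27 by pair. Its catalytic paralog Ezh2 (-0.05, adjusted p = 0.487, edgeR) and the core subunit genes Eed (-0.04, adjusted p = 0.645, edgeR), Suz12 (0.13, adjusted p = 0.0542, edgeR) and Rbbp4 (-0.05, adjusted p = 0.484, edgeR) did not pass the threshold either. The histone-binding subunit gene Rbbp7 was the exception and rose by 0.73 (SE 0.09, adjusted p = 9.34e-05, edgeR). Ramp2, the next tested gene, 19.9 kb from Ezh1, had 0.53 (SE 0.25, adjusted p = 0.105, edgeR).

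**Figure D3:**
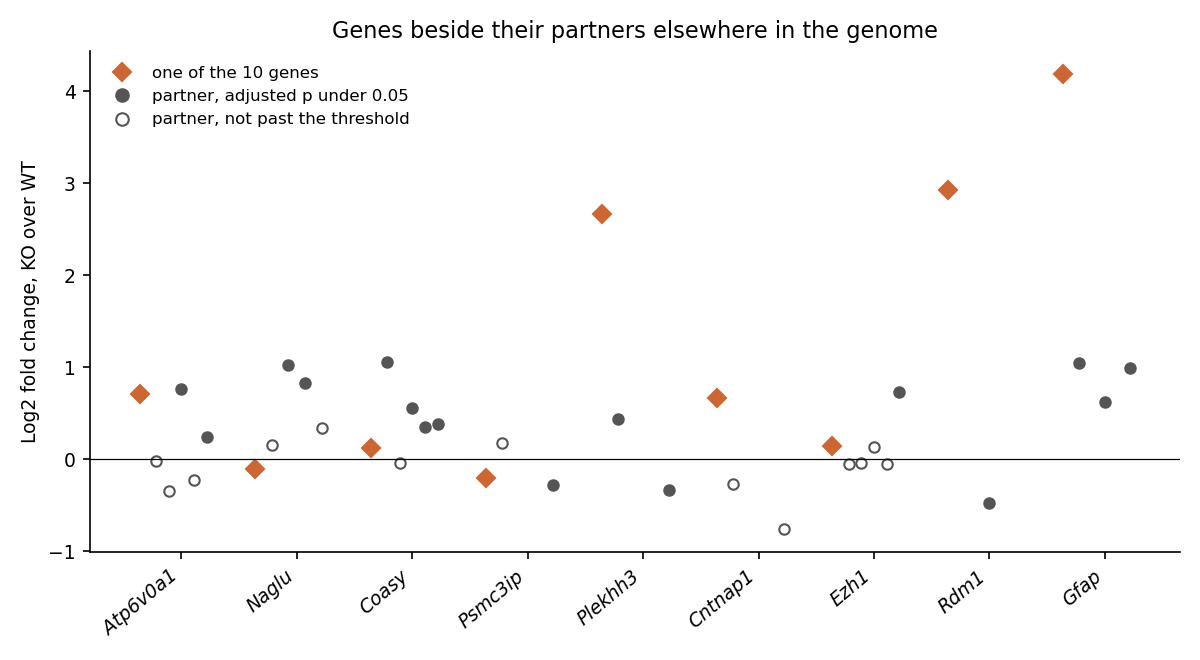
Log2 fold change of KO over WT for 9 of the 10 genes (diamonds) and for their partner genes elsewhere in the genome (circles, filled where the adjusted p was under 0.05). Gfap, Rdm1 and Plekhh3 lie far above their partners, while Atp6v0a1, Coasy, Psmc3ip and Ezh1 lie within the range of theirs, Cntnap1 above both of its partners and Naglu below all 4 of its own.

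Per length of exon, the order of the 10 genes differed between the genotypes. In WT testes Psmc3ip had the highest level, at 54.8 CPM per kb ± 1.13 (SD, n = 3), followed by Naglu at 19.7, Coasy at 7.32, Ezh1 at 4.52 and Atp6v0a1 at 3.93. Meox1 at 2.10 and Rdm1 at 1.10 came next, and Plekhh3 at 0.345, Gfap at 0.252 and Cntnap1 at 0.154 were lowest. In KO testes Rdm1, at 8.50 CPM per kb, stood beside Coasy, at 7.95, and Atp6v0a1 at 6.43 exceeded Ezh1 at 5.01. Gfap reached 4.65 and Plekhh3 2.18, while Meox1 at 0.166 lay under Cntnap1 at 0.249. The low WT levels of Gfap, Plekhh3 and Cntnap1 rest on 13 to 25 counts per library.

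The direction of 9 of the 10 genes was the same in 3 of 3 littermate pairs, with 6 higher and 3 lower in the KO animal. Cntnap1 was the exception. The matching share over all genes was not counted. Separation of the groups, which gives 1 direction in all pairs, held for 30.3% (KO above) and 25.9% (KO below) of all genes tested. Some pair values lay near 0, as in pair 1 of Naglu (-0.01) and Coasy (0.06). Because some of the 10 were selected on this contrast, nothing is read from the count. Gfap and Rdm1 varied little over the analyses tried, from 4.13 to 4.33 and from 2.78 to 3.10 on the log2 scale. Plekhh3 varied from 2.48 to 2.87 and Meox1, the gene with the fewest KO counts, from -4.81 to -3.22. Atp6v0a1 stayed between 0.68 and 0.85.

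**Figure D4:**
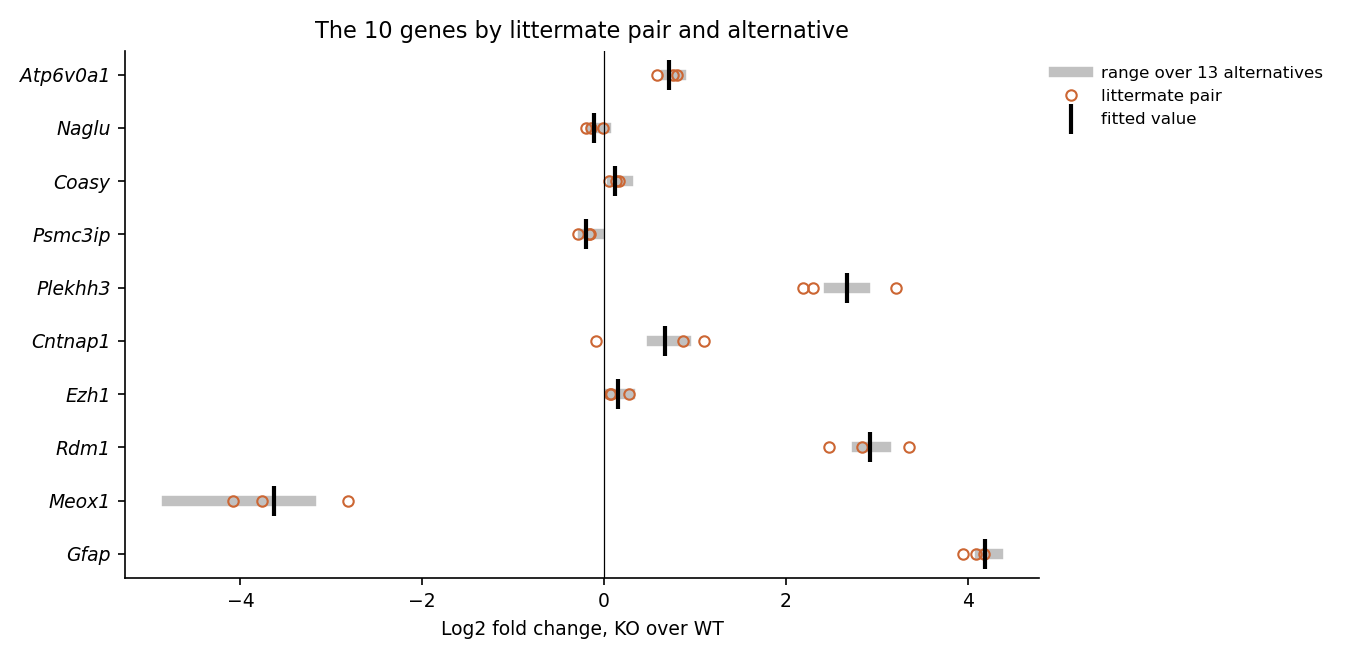
Log2 fold change of KO over WT for the 10 genes in order of position: the fitted value (black tick), each of 3 littermate pairs (open circles) and the range over 13 alternative analyses (grey bar). All pairs of Gfap, Rdm1, Plekhh3 and Atp6v0a1 lie above 0 and those of Meox1 below it, while pair 1 of Cntnap1 lies at -0.09.

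The window around Mlx was then described without regard to how its genes moved. Within 2 Mb of Mlx, the table held 137 genes other than Mlx, of which 96 were tested and 48 called (28 higher, 20 lower), or 50.0%, against 45.4% of all genes. With library size alone as the scaling, 40 of them were called higher and 13 lower. Without the 10 genes, 42 of 86 were called, or 48.8%, and 7 of 86, or 8.14%, were called with an absolute log2 fold change over 1, against 6.03% of all genes and 8.25% of the 1103 tested on chromosome 11 beyond 2 Mb. The share called was 51.6% within 1 Mb and 47.7% within 5 Mb with the 10 genes included. With the 10 genes in, 11 of 96, or 11.5%, were called with an absolute log2 fold change over 1. Leaving the 10 out lowers this share partly by design, since some were chosen on size. Without them, 5 of 37 (13.5%) were called at that size within 0.5 Mb and 0 of 18 from 0.5 to 1 Mb. The share called at any size was thus near that of all genes. The share with large changes was higher in the nearest band, from few genes, which was not tested. Some of those genes lay close to the cutoff, as Stat3 had 1.02, and 0.99 with DESeq2's size factors. With the 10 genes in, the count of 11 at that size within 2 Mb ran from 8 to 13 over the alternatives. The 4 largest values of the window belonged to members. Since some members were chosen on size, nothing is read from their standing apart.

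**Figure D5:**
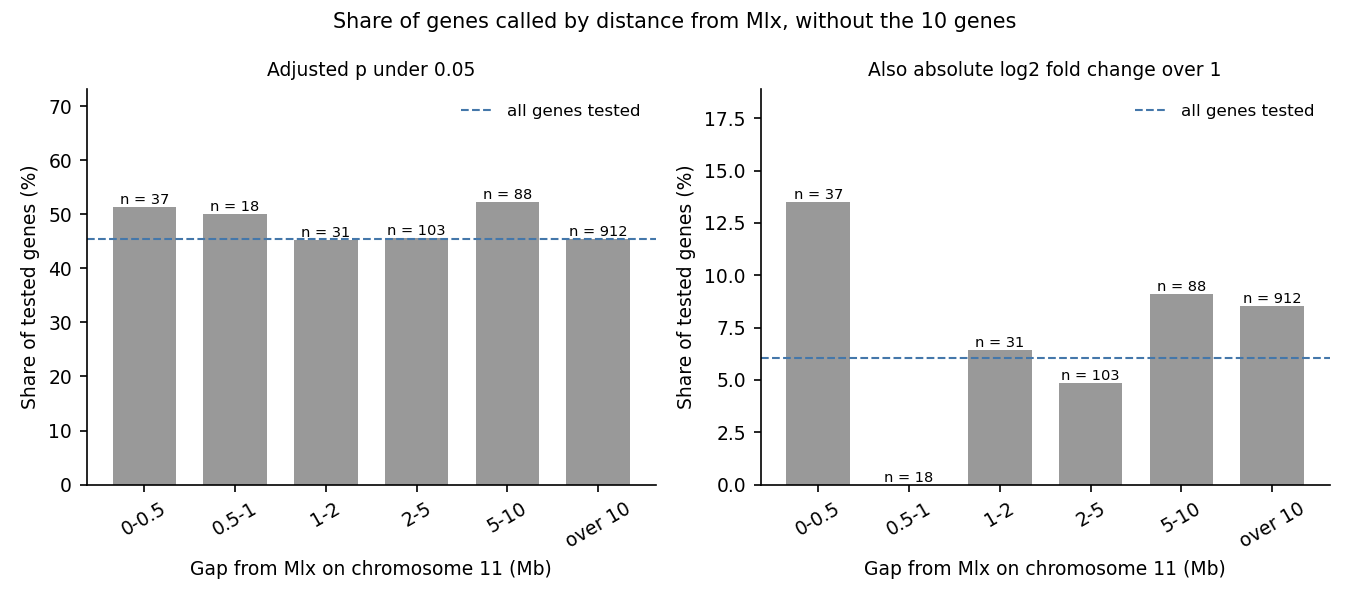
Share of tested genes called at an adjusted p under 0.05 (left, %) and called with an absolute log2 fold change over 1 (right, %) by gap from Mlx in Mb on chromosome 11, without the 10 genes, with the number tested above each bar (18 at 0.5 to 1 Mb). The dashed line marks all genes tested, at 45.4% and 6.03%, and the first band reached 51.4% and 13.5% of 37 genes.

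Among the other genes of the window, the 8 called with the largest absolute log2 fold changes were 7 that rose and 1 that fell. Ifi35, an interferon-induced gene, rose by 1.30 (SE 0.23, adjusted p = 0.000935, edgeR) and Cnp, a myelin enzyme gene, by 1.17 (SE 0.11, adjusted p = 2.38e-05, edgeR). Ptrf, described beside Atp6v0a1, came next. Stat5b (1.06, adjusted p = 0.000249, edgeR) and Stat3 (1.02, adjusted p = 3.91e-06, edgeR), both higher in 3 of 3 pairs, encode cytokine-activated transcription factors. Grn, the progranulin gene, had 1.01 (adjusted p = 1.15e-05, edgeR) and Aoc3, an amine oxidase gene of vessels and smooth muscle, 0.96 (adjusted p = 0.000432, edgeR). Tns4, a tensin gene, fell by 1.07 on the log2 scale (SE 0.31, adjusted p = 0.0143, edgeR), a call that held in 8 of 12 alternatives.

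Partner genes of the 10, elsewhere in the genome, were called in 16 of 29 tested cases, or 55.2%, with 13 higher and 3 lower, against 45.4% of all genes. DESeq2 with the littermate pair as a block called 10 of them, and 4579 of all genes, against 6649 of all genes in the main fit. Their median log2 fold change was 0.18 and their median absolute value 0.34, beside 0.03 and 0.23 over all genes.

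Across the 6 libraries, the tested genes whose log2 CPM followed Gfap most closely were Cped1 (Pearson's r of 0.999, n = 6) and Efhd2 (0.998). For Rdm1 they were Pon3 and Clcc1 (0.999 each), and for Meox1, Eml6 (0.998) and Chrna9 (0.993). Each r includes the step between genotypes, and 1200 tested genes had an r over 0.95 with Gfap, 1251 with Rdm1 and 200 with Meox1. An r takes no account of size. The log2 fold changes were 1.04 for Cped1, 0.54 for Efhd2, 1.23 for Pon3, 0.09 for Clcc1, -0.21 for Eml6 and -0.86 for Chrna9. All were far smaller in size than those of the members they followed. The r values are given as a description.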

How the data were processed

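Whole testes RNA of 3 WT and 3 Mlx KO littermate males aged 7 months was sequenced as paired-end reads. The authors deposited 1 table of raw counts per gene symbol and library, made from reads aligned to mm10 with TopHat. The counting tool, its annotation and its use of strand are not given in the sources used here. The deposited table also holds the authors' own comparison of the genotypes (fold changes, p-values), which was not used. ChIP-seq was not analysed here. Among 17933 rows, 2 repeated another row and were used once.

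The counts were analysed with edgeR 4.0.16 in R 4.3.3: the default filter (minimum count 10), TMM scaling, a quasi-likelihood test (two-sided) on genotype alone, and p-values adjusted by Benjamini-Hochberg over 14640 genes, with a threshold of 0.05. CPM used TMM-scaled library sizes, and pair values a prior count of 2 on the log2 scale. Replicates are separate littermate males. Library totals were 16674678 to 19742726 counts, and the counting error is largest for genes with few counts. Same-numbered WT and KO libraries are called paired in the sample titles and come from shared litters. Their deviations from the group means correlated at 0.145, 0.0363 and 0.121, and at most at 0.0330 for other combinations.

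The 10 genes, the partner and marker lists and the tests were chosen with earlier results of these data known. Some genes of the lists are not reported here and were left out of the list counts. Named besides them are Mlx, at most 8 called genes within 2 Mb, the 2 genes most like each of 3 members, and, added after seeing the data, the tested genes that border each member. Positions, promoters and overlaps come from RefSeq on GRCm38.p6, matched by current symbol for 17248 of 17931 genes and by an older one for 649, and exon lengths come from GENCODE. The gap to Mlx is between gene bodies. Alternatives were DESeq2 1.42.0, DESeq2's size factors, library size alone, a block for the littermate pair (edgeR, DESeq2), no filter, a filter of 1 CPM in 3 libraries, windows of 1 and 5 Mb, and the loss of each library. Scripts were first tested on simulated data.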

Additional observations from a re-analysis of the deposited data

How the results depend on the processing

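The direction of each of the 10 genes was the same under all 13 alternatives, except that Naglu moved from -0.11 to 0.02 with library size alone. That scaling also moved Psmc3ip to -0.06, Coasy to 0.26, Atp6v0a1 to 0.85, Ezh1 to 0.29 and Gfap to 4.33 on the log2 scale, and it turned the direction of 6 genes that were not called, Pank2 (0.10), Atp6v0a2 (0.12), Ezh2 (0.09), Eed (0.10), Rbbp4 (0.09) and Kif18b (0.03), by its shift of 0.14. With each library left out in turn, Atp6v0a2 lay between -0.03 and 0.01 (0.01 without WT1 or KO3) and Atp6v0a4 between -0.57 and 0.04 (0.04 without WT3), and leaving out KO3 gave -4.81 for Meox1. In those fits, 5130 to 7395 genes were called in all, 34 to 54 within 2 Mb and 12 to 18 among partner genes, and a group of 2 is fitted with the spread of both groups. With a replicate block for the littermate pairs, 6743 genes were called by edgeR and 4579 by DESeq2, within 2 Mb 47 and 37, and among partners 16 and 10, the last being over 1.5 times fewer than the 16 without a block, for which the cause was not tested. DESeq2 with the block called 2193 genes higher, against 3634. The edgeR block changed the calls of Ppcs, Etv4 and Nfasc and of no other partner, bordering or window gene named outside the 10. No calls are compared for the 10 or for the marker genes. With 3 libraries per genotype and 2 to 38 counts per library, the values of Cntnap1, of Meox1 in KO and of Gfap, Plekhh3 and Rdm1 in WT testes are the least precise.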
